A study of Mus musculus with 35 samples.

Results

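A set of 39 genes that change the packing or the chemical marks of chromatin was followed through mouse bone marrow side population (SP) cells and CD8 T lymphocytes. They were taken by name from the array annotation: the histone deacetylases (Hdac), the Kat histone acetyltransferases, the Smarc and Chd remodelling proteins, the Cbx chromodomain proteins, the DNA methyltransferases (Dnmt), the Ezh and Phc genes, and Ring1, Rnf2, Bmi1, Eed and Suz12. The rule found 57 probe sets for 39 of the 8251 genes with a probe set of their own, and 1 probe set per gene was kept, the one with the highest mean log2 signal over all 35 arrays. Of the 39 members, 36 rose above the measuring floor on at least 1 ten-cell array, and 27 were detected in at least 1 single cell.

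DNA in the nucleus is wound on histones, and whether a gene can be read depends on how tightly it is packed. Acetyl groups, which Kat enzymes add and Hdac enzymes remove, loosen the packing. The Smarc and Chd ATPases slide or evict histones, and Dnmt enzymes methylate the DNA itself. Polycomb proteins keep developmental genes silent in a pair of complexes: the first, with Ezh1 or Ezh2, Eed and Suz12, methylates histone tails, and the second, with Ring1 or Rnf2, Bmi1, a Cbx and a Phc protein, reads that mark and ubiquitinates histones. In blood, Bmi1 is known for sustaining the self-renewal of stem cells.

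All cells came from the bone marrow of C57Bl/6 CD45.1 mice aged 7 to 9 weeks (the labels give C57Bl/6, male for all but the USP samples, and the methods the CD45.1 allele and the age), and no agent is named. SP cells, which pump out a DNA dye and include the blood stem cells, carried Sca-1, lacked Gr-1 and were taken either low (LSP) or high (USP) in the dye-efflux gate. CD8 cells were sorted as CD3 and CD8 positive. Each of 9 pools (3 LSP, 3 USP and 3 CD8) combined 4 amplifications of 10 cells each and was measured on 2 arrays. Another 12 arrays each held 1 single cell (SC) from the tip of the SP gate, and 5 held single-cell equivalents (SCE), which are aliquots of 1 lysate of 40 such cells. The labels name neither mouse nor day, and the methods draw each experiment from a single mouse, so the spread between pools may be partly technical.

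Every array had been scaled to a common mean, and the number of arrays limits the precision. On 9 of the 12 SP ten-cell arrays between 24.6% and 32.1% of the deposited values were negative, whereas the CD8 and single-cell arrays held none. Ten-cell levels are therefore given as log2 signal intensity with a floor of 7 (printed as 7.0), and single-cell levels as log2 with no floor, a level of 9 or more being called detected. The sorted identities were borne out by T cell and stem cell marker genes: 9 of 10 T cell genes tested were lower and 8 of 9 stem cell genes higher in SP than in CD8 pools (Cd3d, a subunit of the T cell receptor complex, was 7.0 in all 6 SP pools and 12.25, 11.79 and 12.56 in CD8). Genes of other lineages were read too. S100a8, 1 of 8 granulocyte and monocyte genes tested, was called higher in SP (11.09 against 7.31, limma, adjusted p = 0.00572). Cd79b, 1 of 8 B cell genes on the array, was 10.12, 10.94 and 7.0 in CD8 and reached 9.11 in LSP and 9.85 in USP. Cd79a reached 8.88 in USP O and 9.56 in CD8 B, whereas Pax5, Vpreb1, Blnk and Cd22 lay at the floor in every pool. Of the B cell genes 4 were tested and 0 were called. In pools, fewer cells with a transcript and less transcript per cell cannot be told apart.

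The promoters of the members shared a composition that the rule did not use. Windows of 300 bases (250 before and 50 after the transcription start, RefSeq, build GRCm38.p6) were found for 33 members, 46 windows in all. They held a median of 24.5 CG dinucleotides against 7 over all 32851 promoter windows, and 40 of the 46 lay above the median of all. The GC box GGGCGG, searched on both strands like the motifs below, was present in 63.0% of member windows and 35.7% of all, the CCAAT box in 37.0% and 37.4%, the E box CACGTG in 13% and 7.2%, and the TATA box TATAAA in 2.2% and 13.6%. The letters TTTGGCGC, a form of the site of the cell cycle factor E2F, were present in 4.3% of member windows and 0.5% of all, and TTTCCCGC, another form, in 4.3% and 1.1%. No motif's letters lie within another's, a window with several motifs counts under each, and a match does not show that a factor binds there.

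Windows are printed for members whose levels are described below. Ezh2 (chr6:47594981-47595280, minus strand, 31 CG dinucleotides) and Dnmt1 (chr9:20952574-20952873, minus strand, 33 CG dinucleotides) are the windows that hold TTTGGCGC, shown in capitals. Cbx6 (chr15:79834284-79834583, minus strand, 31 CG dinucleotides) belongs to the member with the largest difference between SP and CD8, and its capitals mark GC boxes and an E box.
Ezh2: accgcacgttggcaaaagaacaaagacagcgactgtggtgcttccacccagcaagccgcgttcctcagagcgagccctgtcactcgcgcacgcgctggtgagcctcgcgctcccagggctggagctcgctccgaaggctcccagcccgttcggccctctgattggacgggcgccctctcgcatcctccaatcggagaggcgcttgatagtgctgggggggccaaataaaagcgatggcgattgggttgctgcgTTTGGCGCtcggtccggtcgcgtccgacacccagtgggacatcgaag
Dnmt1: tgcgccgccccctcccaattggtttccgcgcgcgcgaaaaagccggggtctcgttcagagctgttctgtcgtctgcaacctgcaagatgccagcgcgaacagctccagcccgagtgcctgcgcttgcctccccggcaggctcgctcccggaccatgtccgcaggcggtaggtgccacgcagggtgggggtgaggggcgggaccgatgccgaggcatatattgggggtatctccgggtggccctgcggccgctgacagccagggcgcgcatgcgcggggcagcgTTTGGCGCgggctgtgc
Cbx6: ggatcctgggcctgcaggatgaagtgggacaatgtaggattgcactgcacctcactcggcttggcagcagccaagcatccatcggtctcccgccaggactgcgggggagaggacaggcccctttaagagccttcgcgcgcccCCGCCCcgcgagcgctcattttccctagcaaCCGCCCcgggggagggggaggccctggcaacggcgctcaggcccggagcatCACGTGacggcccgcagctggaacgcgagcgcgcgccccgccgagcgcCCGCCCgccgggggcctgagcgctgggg

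In the ten-cell pools the members fell into genes read strongly in every population, genes at or near the floor everywhere, and genes that varied from pool to pool. The 6 members below stood at a level of 9 or more in all 9 pools: the SWI/SNF subunits Smarca2, Smarcc1 and Smarcd2, the NuRD ATPase Chd4, the acetyltransferase Kat7 and the maintenance methyltransferase Dnmt1. Smarcc1, a scaffold of the SWI/SNF complex, gave 12.08, 10.98 and 12.63 in LSP A, B and M, 11.93, 11.98 and 11.66 in USP N, O and Z, and 11.99, 9.85 and 12.02 in CD8 B, C and D. Dnmt1, which copies methylation to the daughter strand after replication, gave 10.13, 11.16 and 9.93 in LSP, 10.66, 10.30 and 11.69 in USP and 11.04, 11.32 and 11.50 in CD8. All 3 populations overlapped for both genes, with CD8 C the lowest pool for Smarcc1.

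**Figure D1:**
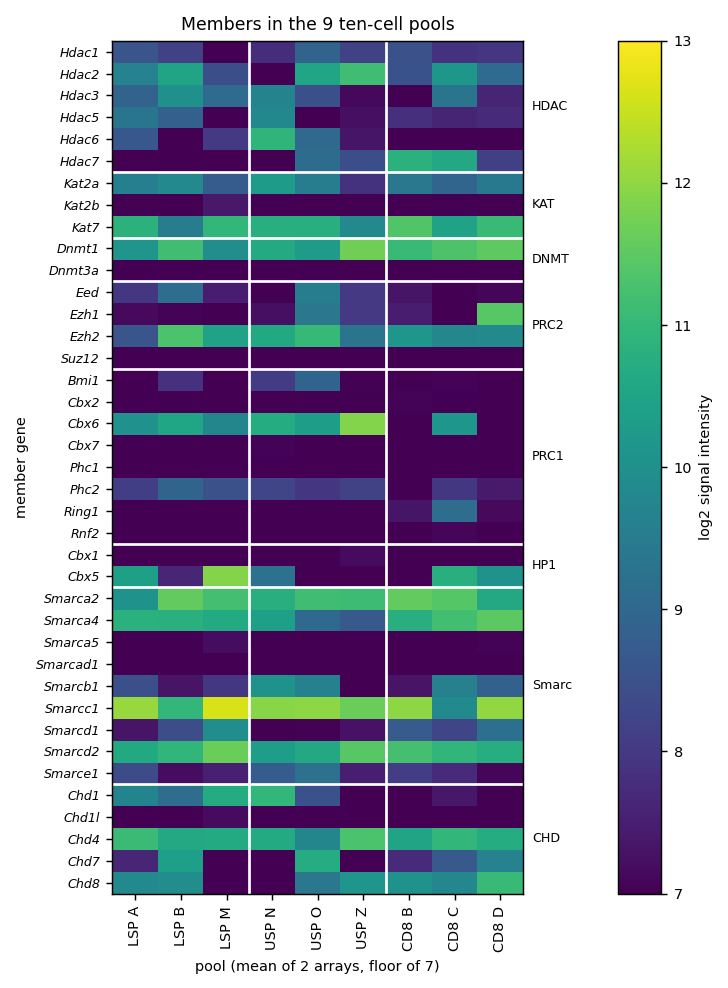
Log2 signal intensity (colour, floor of 7) of the 39 members (rows, grouped by family) in the 9 ten-cell pools (columns, each the mean of 2 arrays). The 6 members at 9 or more in every pool form unbroken bright rows, whereas the kept probe sets of 3 members (Phc1, Smarcad1 and Suz12) lay at the floor on every array.

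At the other end, the kept probe sets of Phc1, Smarcad1 and Suz12 were at the floor on all 18 ten-cell arrays and were not tested. Other probe sets of Smarcad1 and Suz12 did rise above the floor: one of Smarcad1 to 9.70 in USP N and 8.46 in CD8 B, and one of Suz12 to 8.27 in USP O, with every other pool at the floor for both. Dnmt3a, the de novo methyltransferase, reached 7.01 in CD8 D alone. The kept probe sets of Cbx1, Cbx2, Cbx7, Chd1l, Kat2b, Smarca5 and Rnf2 stayed at or below 7.40 in every pool, so their differences lie near 0 through the floor and say little about the cells. The Cbx2 probe set with the highest mean over the ten-cell arrays was 7.98, 7.48 and 7.04 in USP and 7.81 in CD8 B and at the floor elsewhere (LSP minus USP -0.50, adjusted p = 0.876). Duplicate arrays of a pool differed by a median of 0.214 for a member above the floor on both, whereas the SD between the 3 pools of a population had a median of 0.658.

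None of the 36 members tested differed between SP and CD8 at an adjusted p under 0.05 (limma, duplicate arrays averaged, Benjamini-Hochberg over all 6823 probe sets tested), the lowest adjusted p being 0.129. Over all probe sets tested, 2.83% were called higher in SP and 3.0% lower. At an unadjusted p under 0.05 there were 5 members, 3 higher (Cbx6, Chd1, Phc2) and 2 lower (Hdac7, Smarca4) in SP, or 13.9% of those tested against 18.5% of all. The median difference was 0.00 for the members and 0.04 for all probe sets, and the median absolute difference was 0.43 and 0.50. The median standard error was 0.44. The 95% interval reached an absolute difference of 1 for 25 of the 36 members, so a difference of that size was not excluded for them.

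Among the Polycomb genes, Cbx6, a chromodomain subunit of the histone-ubiquitinating complex, showed the largest difference. Its level was 10.04, 10.55 and 9.76 in LSP, 10.71, 10.37 and 11.89 in USP and 7.0, 10.15 and 7.0 in CD8. Both CD8 B and CD8 D lay at the floor, below every SP pool, while CD8 C lay within the range of the SP pools. The difference was 2.5 ± 0.77 (SE), with an interval from 0.67 to 4.33 and an adjusted p of 0.134. Without CD8 C it was 3.55, with an adjusted p of 0.00914. A further Cbx6 probe set differed by 1.41 (adjusted p = 0.359).

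Phc2, a polyhomeotic subunit of the same complex, gave 8.11, 8.94 and 8.48 in LSP, 8.25, 7.96 and 8.16 in USP and 7.0, 7.97 and 7.44 in CD8, a difference of 0.85 ± 0.26 (adjusted p = 0.129). The populations just overlapped, the lowest SP pool (USP O, 7.96) lying below the highest CD8 pool (CD8 C, 7.97). Ring1, a ubiquitin ligase of the complex, was the only tested member whose SP and CD8 pools did not overlap, against 11.3% of all probe sets tested. It lay at the floor in all 6 SP pools and at 7.34, 9.14 and 7.15 in CD8, at least 1.83-fold higher in CD8 from the group means, with an adjusted p of 0.348. Bmi1 was 7.0, 7.86 and 7.0 in LSP, 8.05, 8.93 and 7.04 in USP and 7.0, 7.05 and 7.0 in CD8 (difference 0.63 ± 0.41, adjusted p = 0.52).

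Rnf2, the alternative ubiquitin ligase, shows how far a gene can rest on its probe set. The probe set kept by the rule was at or near the floor, with a highest level of 7.08. The one with the highest mean over the ten-cell arrays alone gave 8.71, 10.29 and 7.0 in LSP, 9.96, 9.90 and 9.86 in USP and 7.12, 7.0 and 7.39 in CD8, a difference of 2.12 ± 0.63 (adjusted p = 0.123). LSP M was the only SP pool among the CD8 values, and without it the difference was 2.53 (adjusted p = 0.0136). This probe set was also called higher in SP with all arrays fitted and the pool as a random block (adjusted p = 0.0089), with the array number as a replicate block (0.0121) and with the kind of array as a block (0.0123).

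Of the histone-methylating complex, Ezh2, its main catalytic subunit, was clearly present in both cell types. Its level was 8.59, 11.30 and 10.45 in LSP, 10.64, 11.01 and 9.32 in USP and 10.16, 9.78 and 9.87 in CD8, a difference of 0.28 ± 0.63 (interval -1.22 to 1.78, adjusted p = 0.842). The CD8 pools lay within the range of the SP pools. Eed, the subunit that reads the methylated tail, gave 7.98, 9.14 and 7.48 in LSP, 7.0, 9.51 and 7.99 in USP and 7.31, 7.0 and 7.11 in CD8 (difference 1.04 ± 0.59, adjusted p = 0.437). Ezh1, the alternative catalytic subunit, gave 7.15, 7.06 and 7.02 in LSP, 7.24, 9.38 and 8.0 in USP and 7.48, 7.0 and 11.44 in CD8, a difference of -1.0 ± 1.02 (adjusted p = 0.688). CD8 D alone set its direction, for without that pool the difference was 0.40 (adjusted p = 0.836).

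**Figure D2:**
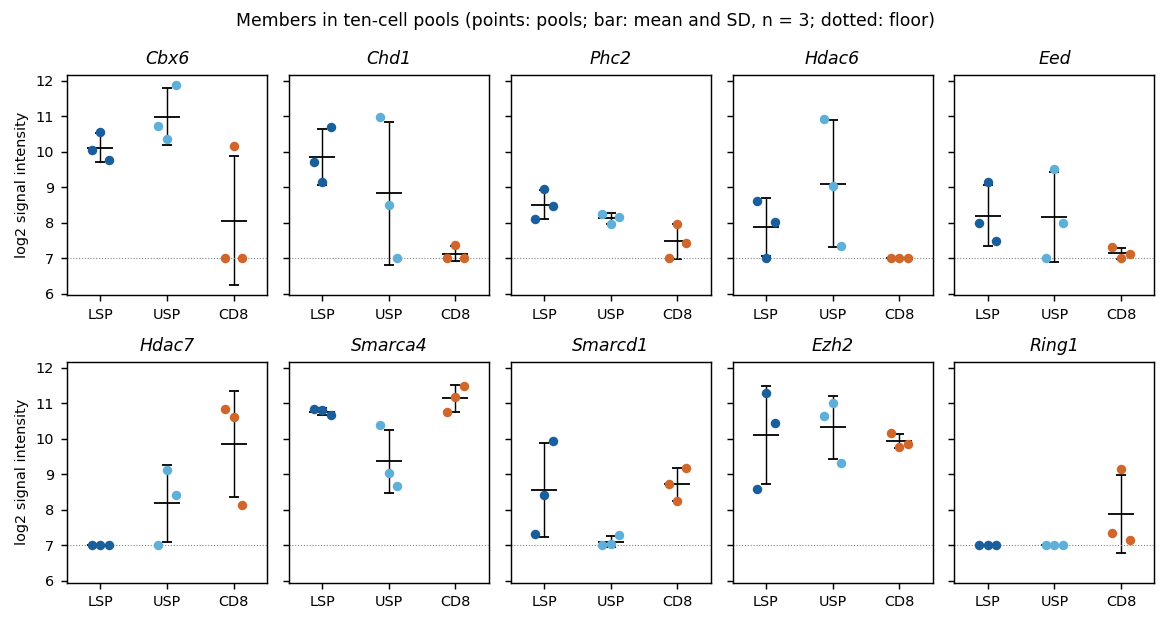
Log2 signal intensity (y axis, floor of 7 dotted) of 10 members in LSP, USP and CD8 pools; points are pools (means of 2 arrays), the horizontal bar and whiskers are the mean and SD of 3 pools. Cbx6 in CD8 is 1 pool at 10.15 and the others at the floor, and Ring1 rises above the floor in CD8 pools alone.

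Among the deacetylases, Hdac7, a class IIa enzyme known from developing T cells, was the member with the most negative difference. It lay at 7.0 in all 3 LSP pools, at 7.0, 9.12 and 8.43 in USP and at 10.83, 10.61 and 8.13 in CD8. Of the 6 SP pools 4 were at the floor, and CD8 D lay below the USP pools that were not. The difference was -2.27 ± 0.70 (interval -3.93 to -0.60, adjusted p = 0.136), and without CD8 D it was -3.13 (adjusted p = 0.0333). Hdac6, a mainly cytoplasmic deacetylase of tubulin, was at the floor in all 3 CD8 pools and at 8.62, 7.0 and 8.01 in LSP and 10.92, 9.04 and 7.33 in USP. Its SP mean of 8.49 ± 1.42 (SD, n = 6) was at least 2.80-fold higher than the CD8 level (adjusted p = 0.376), but over the arrays without negative values the log2 difference was 0.17 instead of 1.49. Hdac3, the deacetylase of the nuclear receptor corepressor complexes, gave 8.90, 10.02 and 9.09 in LSP, 9.68, 8.46 and 7.13 in USP and 7.0, 9.32 and 7.62 in CD8, a difference of 0.90 ± 0.71 (adjusted p = 0.575). Hdac1, Hdac2 and Hdac5 differed by 0.00, 0.30 and 0.47, each by less than its standard error. The acetyltransferases Kat2a and Kat7 differed by 0.05 ± 0.53 and -0.50 ± 0.42.

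Among the remodelling ATPases, Chd1, which binds methylated histone tails at active genes, was 9.70, 9.14 and 10.70 in LSP, 10.98, 8.50 and 7.0 in USP and 7.0, 7.38 and 7.0 in CD8. All SP pools but USP Z exceeded every CD8 pool, and the difference was 2.21 ± 0.83 (interval 0.25 to 4.17, adjusted p = 0.207). Over the arrays without negative values the difference was 0.20. The duplicate arrays of LSP B read 10.62 where values were negative and 7.65 where they were not. Both USP Z arrays, which held no negative values, read 7.0. The duplicates of LSP A, both with negative values, read 9.02 and 10.37, so arrays of the same kind disagreed too. The reason was not tested. Smarca4, the catalytic subunit of many SWI/SNF complexes, was lower in SP, at 10.83, 10.82 and 10.67 in LSP and 10.38, 9.05 and 8.67 in USP against 10.75, 11.19 and 11.49 in CD8 (difference -1.07 ± 0.38, adjusted p = 0.179). Its LSP pools overlapped with CD8, and its USP pools lay below both. Smarca2, the alternative catalytic subunit, was 10.06, 11.55 and 11.21 in LSP, 10.77, 11.17 and 11.12 in USP and 11.57, 11.41 and 10.61 in CD8 (difference -0.22 ± 0.37, adjusted p = 0.782).

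Smarcd1, an accessory SWI/SNF subunit, was 7.31, 8.42 and 9.94 in LSP, 7.0, 7.03 and 7.30 in USP and 8.73, 8.25 and 9.19 in CD8 (difference -0.89 ± 0.54, adjusted p = 0.485). Chd8 was 9.87, 9.95 and 7.0 in LSP, 7.0, 9.39 and 10.12 in USP and 10.05, 9.77 and 11.07 in CD8 (difference -1.41 ± 0.93, adjusted p = 0.52). For Chd8 a single pool of each SP population, LSP M and USP N, lay at the floor, and over the arrays without negative values the difference was -0.25. Chd4 and Smarcd2 were nearly level, differing by -0.04 ± 0.33 and -0.02 ± 0.32. The probe sets of Chd4, Smarcd2 and Cbx6 carry suffixes by which the array's maker marks probes shared among similar sequences. The other 3 Smarcd2 probe sets stayed at or below 7.49 in every pool. Smarca4, Dnmt1, Kat7 and Cbx5 each had another probe set that lay at the floor in every pool, so their levels rest on the kept one.

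**Figure D3:**
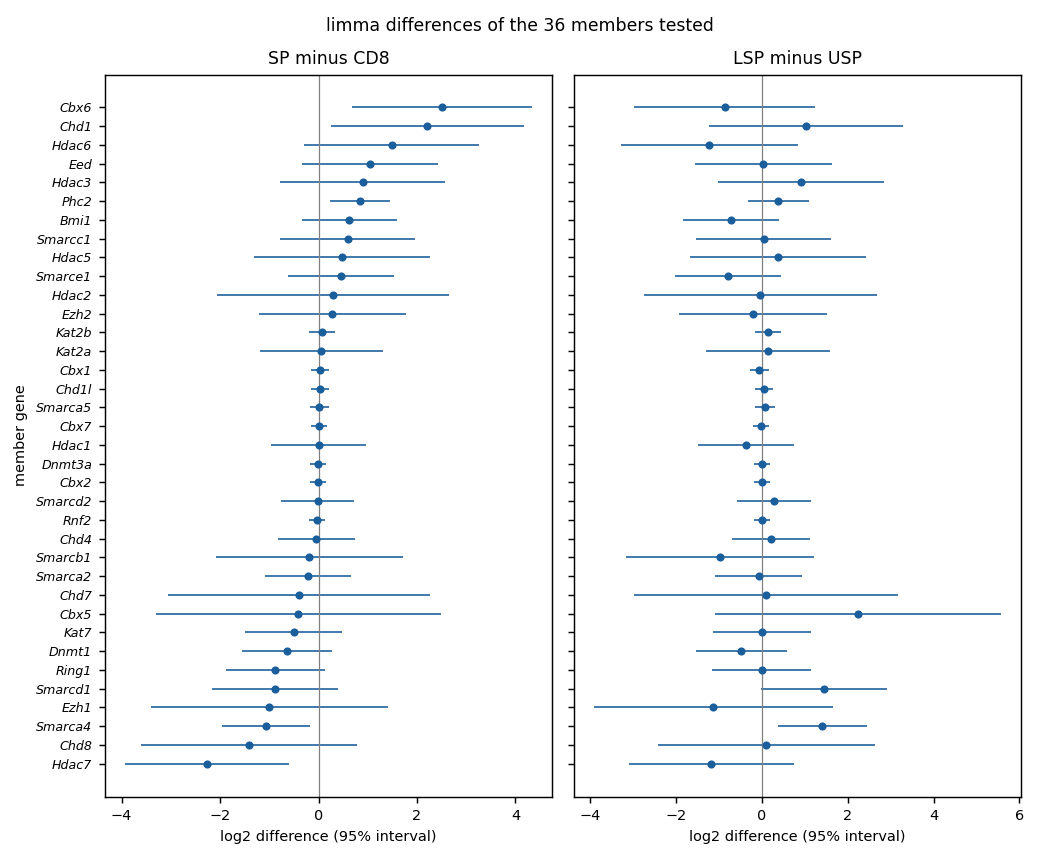
Log2 differences (x axis; points, with 95% intervals from limma) of the 36 members tested (y axis), SP minus CD8 on the left and LSP minus USP on the right. Cbx6 (2.5) and Hdac7 (-2.27) lie at the ends on the left; intervals are not adjusted for the number of tests, and the narrow ones near 0 belong to members held at the floor.

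The calls depended on how duplicate arrays entered the fit. When all 18 arrays were fitted with the pool as a random block, the design that the methods describe, Cbx6 was called higher (adjusted p = 0.0115) and Hdac7 lower (adjusted p = 0.0172) in SP. Among probe sets not kept, the second of Rnf2 described above was called higher in SP. With the kind of array as a further block Smarca4 was also called lower (-1.36, adjusted p = 0.0267). Over the arrays without negative values only 1 pool each of LSP and USP is left, and the 3 CD8 pools alone supply the spread. Bmi1 (0.35), Eed (1.27) and Hdac6 (0.17) passed the threshold there, but with Hdac6 at the floor in every CD8 pool and a large share of all probe sets passing too, these are given as values and not as calls.

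Between LSP and USP, compared to ask whether the parts of the gate differ, no member was called in the fit of all 9 pools, the lowest adjusted p being 0.641. Over all probe sets, 0.0293% were called higher in LSP and 0.0733% lower. A single member passed an unadjusted p under 0.05, against 5.99% of all probe sets. That member was Smarca4, 1.41 ± 0.44 higher in LSP, where all 3 pools (10.67 to 10.83) lay above all 3 USP pools (8.67 to 10.38). The other Smarca4 probe set lay at the floor in every pool. There were 3 members whose pools did not overlap, against 5.98% of all tested: Smarca4, Smarcd1 (1.45 ± 0.62 higher in LSP, the nearest pools at 7.31 and 7.30, and 0.76 without LSP M) and Ezh1 (1.13 ± 1.17 lower in LSP, where no pool exceeded 7.15).

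The largest LSP to USP difference belonged to Cbx5, a heterochromatin protein that binds silenced regions. It was 10.42, 7.65 and 11.89 in LSP and 9.24, 7.0 and 7.0 in USP, a difference of 2.24 ± 1.41 (adjusted p = 0.876), and in CD8 it was 7.0, 10.76 and 10.06. The difference was 3.41 without LSP B and 1.29 without LSP M. Each population held a pool at 7.65 or below for Cbx5. Hdac6 and Hdac7 were lower in LSP by 1.23 ± 0.87 and 1.18 ± 0.81 (adjusted p = 0.876 for both), each with overlapping or floored pools. Single pools carried these values: Hdac6 was -0.31 without USP N and -2.11 without USP Z, and Hdac7 was -0.71 without USP O and -1.77 without USP N. The 12 granulocyte and monocyte genes summed to 90.4 to 92.4 in LSP and 97.6 to 112.5 in USP pools on the log2 scale, with 8 and 4 of them at the floor in all pools of the population. The 7 erythroid genes (49.4 to 50.7 in LSP, 52.7 to 53.3 in USP, with 3 and 6 at the floor) were also separate. Hba-a1, an alpha globin, alone parted them, at 7.0, 7.97 and 8.75 in LSP and 11.27, 10.94 and 10.74 in USP. Klf1, Epb42 and Tfrc rose above the floor in LSP (7.23, 7.12 and 7.77) and in no USP pool. The 4 megakaryocyte genes (28.0 to 28.4 and 29.3 to 30.0, with 3 and 2 at the floor) were separate as well. That rested on Vwf, at 7.0 in all LSP pools and 7.76, 8.47 and 8.97 in USP. The part of cells of these lineages in the member differences was not tested.

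Partner genes of the same complexes gave a similar picture. Of 74 on the array (Polycomb accessory factors, SWI/SNF partners, corepressor scaffolds, histone methylases and demethylases, sirtuins, assembly factors and readers of DNA methylation), 62 were tested, 1 was higher and 1 lower in SP than in CD8, and none differed between LSP and USP. Ruvbl1, an ATPase of remodelling and acetylation complexes, was higher in SP, at 9.05 ± 1.11 (SD, n = 6) against 7.08 ± 0.12 (SD, n = 3), a difference of 1.97 ± 0.43 (adjusted p = 0.0454). Actb, which is both cytoskeletal actin and a SWI/SNF partner, was lower, at 12.05 ± 0.40 against 13.09 ± 0.14, a difference of -1.04 ± 0.23 (adjusted p = 0.0444). By list, the median difference ran from -0.32 for the corepressor scaffolds (9 tested) to 1.03 for the readers of DNA methylation (4 tested). Proliferation genes stood beside these values: 2 of 16 tested, Pcna and Top2a, were higher in SP (by 2.58 and 2.74), and both lay at the floor in all CD8 pools. The median difference of the 16 was 0.54, and CD8 pools did not lack such transcripts. Ccna2 gave 9.19, 9.75 and 9.30 in CD8, 7.0, 7.09 and 7.0 in LSP and 10.38, 7.97 and 9.69 in USP.

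Single SP cells were compared with SCE to separate differences between cells from those of the amplification, since aliquots of 1 lysate should differ by technique alone. A cell held between 5 and 11 detected members (median 8), or 12.8% to 28.2% of the 39, and an SCE between 6 and 12 (median 7). Over all probe sets the share was 9.6% to 12% in cells and 10.9% to 12.6% in SCE, but the members' probe sets were kept for their high mean on these same arrays, so nothing is read from that gap. There were 7 members detected in 6 or more of 12 cells: Chd4 in 10, Cbx6 in 9, Hdac1, Hdac5 and Smarcd2 in 8, Smarca2 in 7 and Dnmt1 in 6. Hdac2, Phc2 and Smarcc1 were detected in 4, another 17 in 1 to 3 cells, and 12 in none of the cells or SCE, all by the kept probe sets. By its other probe set, Cbx2 was detected in SCE B (9.80).

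**Figure D4:**
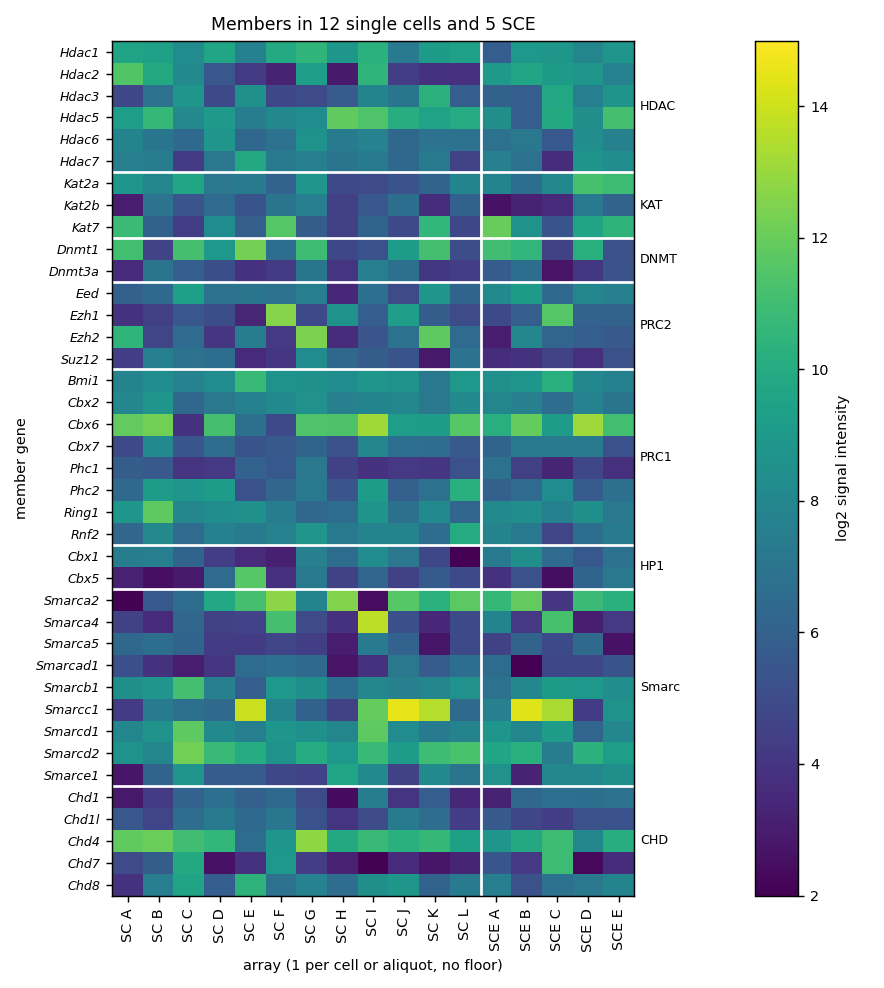
Log2 signal intensity (colour, no floor) of the 39 members (rows, grouped by family) in 12 single cells and 5 SCE (columns, 1 array each). Smarcc1 ranges widely in both groups (4.24 to 14.50 in cells, 4.26 to 14.37 in SCE), whereas Hdac2 runs from 2.93 to 11.48 in the cells and from 7.74 to 9.67 in the SCE.

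Hdac2, a class I deacetylase of corepressor complexes, was the member whose cells stood furthest apart relative to the aliquots. It ran from 2.93 through a median of 4.95 to 11.48 in the 12 cells, with cells A (11.48), I (10.49), B (9.92) and G (9.28) detected. The SCE gave 9.02, 9.67, 9.08, 8.86 and 7.74. Of the 12 cells, 7 lay below every SCE, cells C and G lay within their range and 3 above it. The SD was 3.18 in cells and 0.71 in SCE, and the mean absolute deviation was wider in cells at a 1-sided exact permutation p of 0.00178 over all 6188 assignments of the arrays, or 0.319 after adjustment over 4215 probe sets.

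No probe set passed that adjustment (0.0% of 4215), and 9.25% passed an unadjusted p under 0.05, Hdac2 being the only one of the 27 detected members. Probe sets entered this test through a level of 9 or more in at least 1 single cell, whatever their SCE. That filter favours a wide spread in cells, so these shares and the proportions that follow can be too high. Of the variance in single cells, the part beyond that of the SCE (biological proportion, by maximum likelihood) was 0.971 for Hdac2, and its median was 0.170 over the 27 members and 0.355 over all 4215 probe sets. Of the 27 members, 10 had a proportion of 0. The median SD of the members was 1.77 in cells and 1.69 in SCE. The median depended on single aliquots, for without SCE C it was 0.621 and without SCE D 0.079.

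Cbx6, Phc2, Chd4 and Smarca2 followed Hdac2 in biological proportion among members detected in 4 or more cells. Cbx6 ran from 3.85 through 11.26 to 13.17 in cells, where C, E and F were below detection, and its SCE gave 10.16, 11.95, 9.14, 13.08 and 11.07 (proportion 0.77, exact permutation p = 0.249). Phc2 ran from 5.29 through 7.09 to 10.22, with cells B, D, I and L detected, and its SCE gave 5.97, 6.53, 8.34, 5.72 and 6.79 (proportion 0.655, exact permutation p = 0.102). For both genes the lowest and highest values belonged to single cells, beyond the SCE on each side. With 12 cells against 5 SCE that often happens through the unequal numbers alone, so nothing is read from it.

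Chd4 ran from 6.58 through 10.63 to 12.80, with cells E and F below detection, against SCE of 8.79, 9.83, 10.93, 7.96 and 10.09 (proportion 0.50). Smarca2 ran from 2.10 through 10.03 to 12.76, and its SCE gave 10.64, 11.88, 4.05, 10.86 and 10.23 (proportion 0.386). Cells A and I (2.10 and 2.43) and SCE C (4.05) were the lowest arrays for Smarca2, so a reading that low also occurred among aliquots of 1 lysate.

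Among members detected in 4 or more cells, the lowest proportions belonged to Hdac1, Hdac5, Smarcc1, Dnmt1 and Smarcd2. Smarcc1, strong in all 9 pools, ran from 4.24 through 7.05 to 14.50 in cells, with E, I, J and K detected, and its SCE gave 7.66, 14.37, 13.34, 4.26 and 8.67, an SD of 3.77 and 4.18. Dnmt1 ran from 4.67 through 9.04 to 12.30, and its SCE gave 11.02, 10.58, 4.51, 10.17 and 5.24, an SD of 2.95 and 3.15. Both genes were thus read as present or missing among aliquots of 1 lysate as widely as among cells. Hdac1 was tight in cells, from 7.30 through 9.44 to 10.52, and was detected in 8 cells but none of the 5 SCE (5.89, 8.93, 8.89, 7.97 and 8.78). Of those SCE 3 lay just under the detection level, between 8.78 and 8.93, and the mean difference was 1.09 ± 0.65 (adjusted p = 0.946). Hdac5 ran from 7.51 through 9.38 to 11.82 against SCE of 8.44, 5.89, 9.90, 8.41 and 11.15, and Smarcd2 from 7.96 through 10.05 to 12.24 against 9.65, 10.27, 7.46, 10.37 and 9.30.

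**Figure D5:**
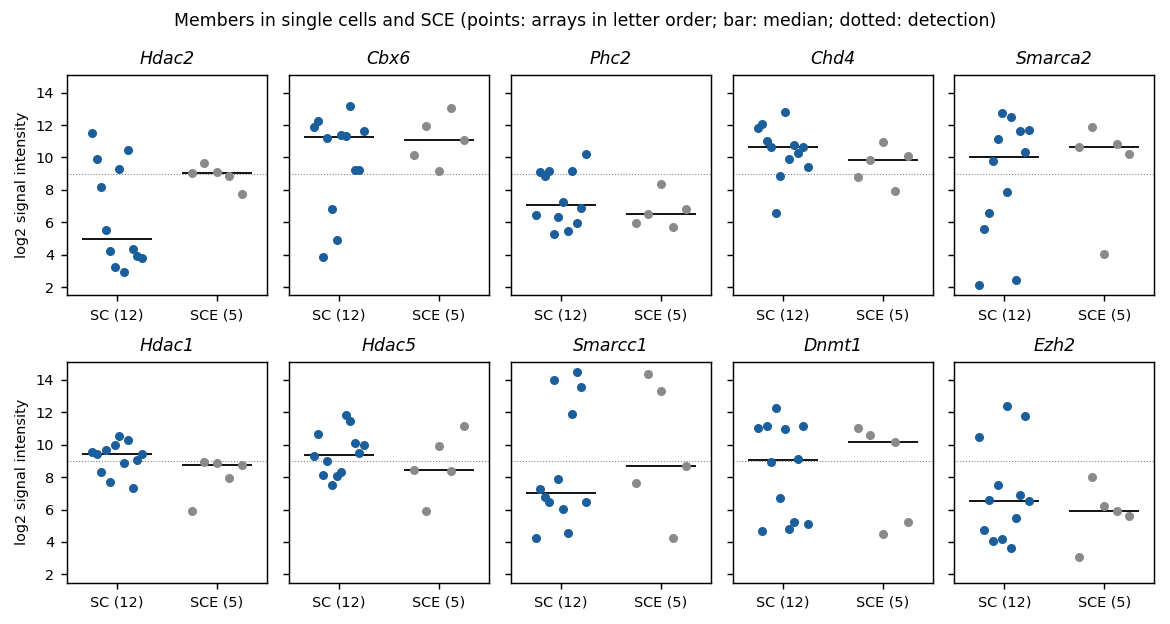
Log2 signal intensity (y axis, detection at 9 dotted) of 10 members in 12 single cells (SC) and 5 SCE; points are arrays and the bar is the median. The SCE of Hdac2 lie between 7.74 and 9.67 while its cells run from 2.93 to 11.48; for Smarcc1 and Dnmt1 the SCE are spread as widely as the cells.

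Ezh2 was detected in 3 of 12 cells, A (10.51), G (12.42) and K (11.80), and in no SCE (3.05, 8.02, 6.25, 5.88 and 5.62). The other 9 cells lay between 3.63 and 7.53 (proportion 0.682, exact permutation p = 0.176). Of 18 proliferation genes on the array, 4 were detected in cell A, 1 in cell G and 6 in cell K, and between 0 and 2 in each other cell, a side-by-side description of 12 cells. Among the other core Polycomb genes, Eed was detected, among cells, in C alone (9.34), Bmi1 in E (10.77) and Ring1 in B (11.79). Rnf2 was detected in L (10.02) by the kept probe set and in F (10.04) by the one that rose in the pools. Ezh1 was detected in F (12.64) and J (9.27), while Suz12 and Phc1 were detected in none. None of these genes was thus read above 9 in more than 2 of 12 cells. For Bmi1 that count rests on the detection level, since several of its readings lay just under it. It ran from 7.20 through 8.42 to 10.77 in cells, and its SCE gave 8.53, 8.85, 10.16, 8.09 and 7.71 (proportion 0).

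In mean level, no member differed between single cells and SCE (limma, adjusted p of 0.946 or more), against 0.0474% of all probe sets called. No member passed an unadjusted p under 0.05 either. Of all 4215 probe sets 202 did, close to the share that this threshold lets through by chance, so nothing is read from its absence among the members. The largest gaps were Hdac2 (-2.43 ± 1.37), Kat7 (-2.21 ± 1.30) and Kat2a (-1.86), each lower in cells. Kat7, above 9 in all 9 pools, was detected in 3 of 12 cells and 3 of 5 SCE. Hba-a1 was among the probe sets called, at 11.46, 12.68, 12.61, 13.11 and 13.38 in SCE and between 5.64 and 10.39 in cells. The 5 SCE come from 1 lysate, so the test compares these cells with that lysate alone.

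The pools and the single cells did not always show the same members. Chd1 stood above 9 in 4 of 6 SP pools and reached no more than 7.44 in any of the 12 cells or 6.88 in any SCE. The cell and SCE arrays held no negative values, and the SP ten-cell arrays of that kind read Chd1 at 7.65 (LSP B) and 7.0 and 7.0 (USP Z). For Chd1, pools against cells and the kind of array therefore cannot be told apart. Ring1 and the kept Rnf2 probe set were at the floor in all 6 SP pools, yet each was detected in 1 single cell. Their medians, 8.09 and 7.72 in cells and 8.16 and 7.26 in SCE, also lay above that floor. Pools and cells were amplified from different numbers of cells, and most SP pools were read on arrays with negative values. Ten-cell levels alone were floored, which can raise a level but not lower it. These values stand side by side and were not compared by a test, and the reason for the gaps was not tested.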

How the data were processed

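Mouse marrow RNA was amplified and hybridised to Affymetrix MG-U74Av2 arrays. The deposited values are linear signal intensities with each array scaled to a common mean by the authors; the study's methods describe RMA values on a log2 scale, which these are not. Of 35 arrays, 9 hold negative values. The 66 control probe sets were left out, leaving 12422, of which 10833 name 1 gene in the platform annotation, 396 several and 1193 none.

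Ten-cell intensities were floored at 128 (log2 of 7), logged, averaged over the 2 arrays of a pool and tested by limma (version 3.58.1, under R 4.3.3) with a mean for each population and SP as the mean of LSP and USP, over the 6823 probe sets that exceeded this floor on any array. Benjamini-Hochberg adjustment ran over all of them, and an adjusted p under 0.05 was a call. Single-cell levels were logged without a floor and tested over 4215 probe sets detected in at least 1 cell, by limma for the mean and by a 1-sided exact permutation test for the spread. The 95% intervals are unadjusted. Each p measures the spread between these samples, which may be technical. Scripts were tested on simulated data.

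Members and lists were chosen with earlier results of these data known. Values in every pool or cell are given for the 10 largest differences between SP and CD8, the 5 largest between LSP and USP, the 5 highest and 5 lowest biological proportions among members detected in at least 4 cells, and the core Polycomb and Dnmt genes; Phc2 and Smarca2 in pools, and Smarcc1 in pools, were added after their values were seen. Array numbers within pools gave no pairing (correlations of same-numbered deviations from -0.18 to 0.25). Alternatives were the floor, filter, scaling, duplicates, kind of array, left-out samples, probe choice, detection level and estimator.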

Additional observations from a re-analysis of the deposited data

Results flagged for a closer look

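Among the 27 members detected in a single cell, 3 had an SCE far from the other 4, by a gap to the nearest aliquot of over 0.71 of the group's range (Dixon's 95% value for 5 samples), where chance gives about 1 in 20. Ezh1 was highest in SCE C, at 11.56, with the next aliquot at 6.12. Smarca2 was lowest in SCE C, at 4.05, with the next at 10.23. Smarce1, an accessory SWI/SNF subunit, was lowest in SCE B, at 3.32, with the next at 8.02.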

How the results depend on the processing

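No member was called between SP and CD8 under other floors, filters, quantile scaling or probe choices (1 of these, the probe choice with all 35 arrays floored, was added after seeing the data). With the pool as a random block 1 member was called higher and 1 lower, and with the array number as a replicate block again 1 (Cbx6, adjusted p = 0.0155) and 1 (Hdac7, adjusted p = 0.0221). Under the replicate block no other kept probe set of a member was called. With the kind of array as a block the counts were 1 and 2, and over arrays without negative values, where the CD8 pools alone supply the spread, 3 were higher. An unadjusted p under 0.05 gave 3 higher and 2 lower in SP, and 1 higher in LSP. Leaving out a pool gave 0 to 1 higher (Cbx6 without CD8 C) and 0 to 1 lower (Smarca4, -1.33, without USP N; Hdac7 without CD8 D). Ezh1 ran from -1.82 to 0.40 when a pool was left out, the latter without CD8 D. Among 293 values of named members under alternatives, 275 kept their direction and side of the threshold, 17 became called and 1 reversed; the causes were not tested. Over all probe sets, calls between SP and CD8 went from 398 to 661 with the random block, 639 with the replicate block, 674 with the kind block, 1606 of 5931 without the arrays holding negative values and 214 without a filter. The count between LSP and USP was 7, 31 with the random block, and 1196 of 5931 (5 of them member probe sets) over arrays without negative values, with 1 pool on each side. The median biological proportion of 0.170 became 0.383 with a floor of 7, 0.294 with detection at 10, and 0.079 to 0.621 leaving out each SCE. Signals under the floor hide differences in weakly read members.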
